A study of Mus musculus with 6 samples.

Results

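The genes described here are those of the mitochondrial ribosomal proteins, chosen as every row of the deposited count table whose mouse symbol begins with Mrpl or Mrps followed by a digit. The rule found 76 genes, called members here, among the 37477 Ensembl IDs of the table, 47 with large-subunit symbols (Mrpl) and 29 with small-subunit symbols (Mrps), and left out 4 pseudogene rows of the same names. Subunits are counted by symbol throughout, and a symbol need not match the place of its protein. For example, the product of Mrps18a has been placed in the large subunit and that of Mrps36 outside the ribosome. The RNA came from quadriceps, the thigh muscle group that extends the knee, of C57BL/6 mice aged 20 weeks. One group, called KO here, was muscle-specific estrogen receptor alpha -/-, and the other was wild type (WT), with 3 libraries in each. Not given in the sources used here was the promoter that drove the deletion. Nothing in the labels says whether a library was 1 animal, so the p-values measure the spread between libraries. These are bulk samples, in which fewer cells of a type and less RNA per cell cannot be told apart.

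Mitochondria keep a small genome of their own, and the proteins it encodes, all of them parts of the respiratory chain and ATP synthase, are made on ribosomes inside the organelle. The RNAs of these mitoribosomes come from the mitochondrial genome, while their proteins are encoded in the nucleus, translated in the cytosol and imported. Some of the proteins have bacterial counterparts, and others occur only in mitochondria. Muscle, with its high demand for ATP, depends on this translation, and human mutations in several of the genes cause respiratory chain disease.

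Total counts ranged from 7388365 to 8560244 per library. Esr1, the deleted gene, had 22, 16 and 16 counts in KO replicates 1, 2 and 3, against 50, 41 and 44 in WT replicates 1, 2 and 3, which checks the labels. All 9 skeletal muscle markers examined were detected. They summed to 194000 to 212300 CPM (counts scaled to a common library size) in KO and 206200 to 243200 CPM in WT. Ttn made up most of these sums, and of the 9 markers 4 were higher and 5 lower in KO (median log2 difference -0.0006). Library sizes behind CPM were scaled by the trimmed mean of M-values (TMM). Members took 0.191% ± 0.00825 of KO counts and 0.186% ± 0.00692 of WT counts (SD, n = 3 each), and the median tested member had a mean of 182.7 counts per library.

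Promoter sequence is shown for 5 members that recur below: Mrpl17 and Mrps31, which had the smallest unadjusted p among members higher and lower in KO, and the paralogs Mrps18a, Mrps18b and Mrps18c. Each line gives the 250 bases before the RefSeq gene start in build GRCm38.p6, on the gene's own strand from 5′ to 3′. The sequences show which NRF1 and ETS motifs lie in these 250 bases and where. Capitals mark matches, on either strand, to GCGCATGCG, the core motif of the nuclear respiratory factor NRF1, and to CCGGAAG, the core motif of ETS factors such as GABP.
Mrpl17 (chr7:105811088-105811337, minus strand): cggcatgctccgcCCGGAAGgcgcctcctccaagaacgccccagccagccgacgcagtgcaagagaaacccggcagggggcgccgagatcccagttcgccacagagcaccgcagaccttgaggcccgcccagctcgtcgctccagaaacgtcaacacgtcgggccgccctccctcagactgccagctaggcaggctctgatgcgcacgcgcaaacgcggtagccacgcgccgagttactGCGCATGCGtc
Mrps31 (chr8:22411090-22411339, plus strand): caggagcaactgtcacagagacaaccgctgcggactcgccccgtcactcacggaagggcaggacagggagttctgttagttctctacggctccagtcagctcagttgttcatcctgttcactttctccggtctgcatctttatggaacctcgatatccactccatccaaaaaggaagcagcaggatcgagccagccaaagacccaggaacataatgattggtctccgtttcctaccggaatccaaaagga
Mrps18a (chr17:46110754-46111003, plus strand): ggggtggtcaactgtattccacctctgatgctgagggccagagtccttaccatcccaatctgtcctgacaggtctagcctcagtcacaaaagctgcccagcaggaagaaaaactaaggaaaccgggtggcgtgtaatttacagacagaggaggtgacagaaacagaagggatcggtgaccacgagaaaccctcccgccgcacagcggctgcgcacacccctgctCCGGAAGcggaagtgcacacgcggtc
Mrps18b (chr17:35916441-35916690, minus strand): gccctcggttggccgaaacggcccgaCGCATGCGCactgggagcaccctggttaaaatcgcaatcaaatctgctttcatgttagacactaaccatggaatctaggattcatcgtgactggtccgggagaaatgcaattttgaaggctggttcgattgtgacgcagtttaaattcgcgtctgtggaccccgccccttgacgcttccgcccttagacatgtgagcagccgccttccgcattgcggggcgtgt
Mrps18c (chr5:100798509-100798758, plus strand): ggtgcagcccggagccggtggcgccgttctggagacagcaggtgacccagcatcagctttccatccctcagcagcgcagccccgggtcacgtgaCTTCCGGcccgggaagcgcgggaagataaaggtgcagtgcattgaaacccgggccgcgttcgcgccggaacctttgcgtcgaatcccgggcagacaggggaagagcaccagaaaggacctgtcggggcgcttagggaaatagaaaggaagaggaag
Mrpl17 held the NRF1 motif 11 bases before its start and the ETS motif 237 bases before it. The Mrps31 window held neither. Among the paralogs, Mrps18a and Mrps18c each held the ETS motif, 26 and 156 bases before the start, and Mrps18b held the NRF1 motif 224 bases before it.

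Transcripts of the mitochondrial ribosomal proteins stood at nearly the same level in KO and WT muscle. Of the 75 members tested, KO was above WT in 45 and below it in 30. The log2 difference had a median of 0.02 and ranged from -0.23 for Mrpl27 to 0.30 for Mrpl22. Neither extreme was stable: over the 16 alternative settings Mrpl27 ran from -0.33 to -0.06 and Mrpl22 from 0.04 to 0.44. The 13848 genes tested divided into 6827 higher and 7021 lower, around a median of -0.0024. By edgeR's quasi-likelihood test with Benjamini-Hochberg adjustment over all genes, 0 members reached the threshold of 0.05, and 0.0% of all genes did. Esr1 itself had a log2 difference of -1.45 and the lowest p of all genes in this test, 1.04e-05. Its adjusted p was 0.145, so the deleted gene was not called either. DESeq2 and limma voom also called 0 members. Before adjustment 2 members, Mrpl17 and Mrpl9, were below 0.05, as were 4.26% of all genes. In the authors' deposited table the lowest p of any member was 0.0568, for Mrpl17, and every member had an adjusted p of 1.

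The intervals show how large a difference these libraries could have hidden. For 68 of the 75 members the 95% interval of the log2 difference lay within 0.5 of zero on either side, and for all 75 within 1. The median half-width was 0.24 log2 units for members and 0.33 for all genes tested. Leaving each library out in turn, the median log2 difference of the members ran from -0.01 to 0.04. The negative value came without KO replicate 2, when 33 members stood higher and 42 lower. Members are short genes, and log2 differences of all genes varied with length. Among the 3306 shortest genes tested, from 39 to 2339 exonic bases, the median over all genes was 0.04 and the median of the 38 members there was 0.05. Once the trend on length was taken out, the members divided into 38 higher and 37 lower around a median of 0.0028.

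**Figure D1:**
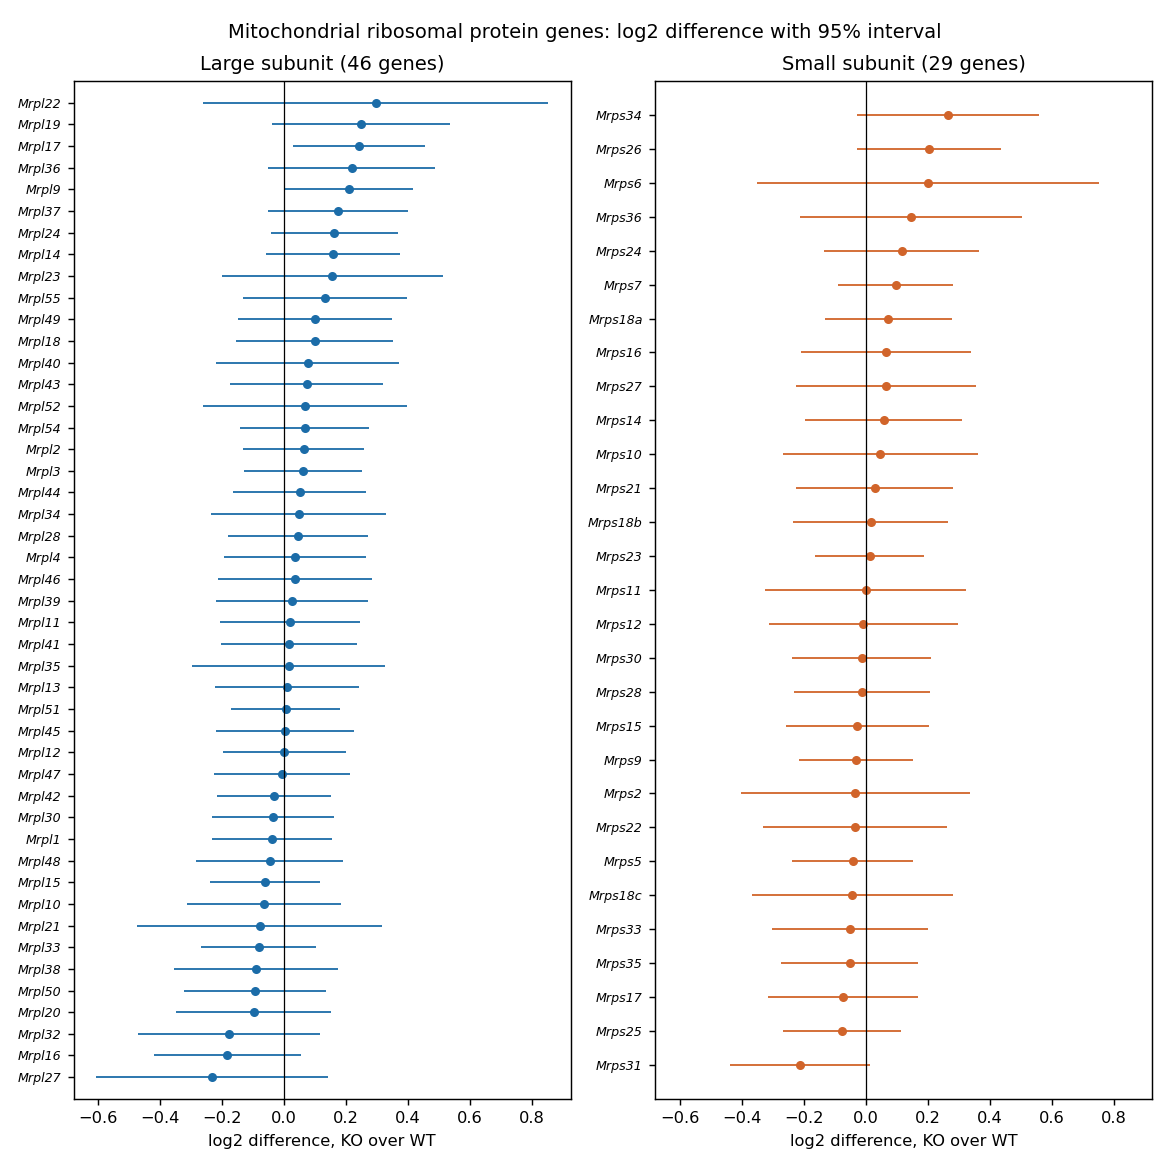
Log2 difference of KO over WT (x axis) for each of the 46 large-subunit and 29 small-subunit members tested; points are estimates and lines 95% intervals from edgeR's quasi-likelihood fit. The interval leaves out 0 only for Mrpl17 and Mrpl9.

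Summed over all members, the level was 1836, 1989 and 1880 CPM in KO replicates 1, 2 and 3, against 1839, 1913 and 1858 CPM in WT replicates 1, 2 and 3. The groups overlapped, and their means, 1902 ± 78.5 CPM in KO and 1870 ± 38.7 CPM in WT (SD, n = 3 each), stood in a ratio of 1.02. KO replicate 2 was the highest library and held the highest value of 28 of the 75 tested members. The next highest library was WT replicate 2. These 2 libraries also had the highest sums of the 5 blood cell markers, all of which were detected. Those sums were 814, 1706 and 694.5 CPM in KO replicates 1, 2 and 3, against 1009, 1730 and 1512 CPM in WT replicates 1, 2 and 3. Sums of other cell type markers were taken too. That of smooth muscle markers was likewise highest in KO replicate 2 (127.1 CPM) and WT replicate 2 (129.2 CPM). That of macrophage markers was highest in KO replicate 2 (159.9 CPM) and lowest in WT replicate 2 (115.3 CPM). The part of blood or other cells in the level of the members was not tested.

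The 2 subunits, as given by symbol, were also summed apart. Large-subunit proteins summed to 1259 ± 59.4 CPM in KO and 1234 ± 21.3 CPM in WT, and small-subunit proteins to 643 ± 19.3 CPM in KO and 636 ± 17.5 CPM in WT (SD, n = 3 each). The ratio of small-subunit to large-subunit CPM was 0.5163, 0.5004 and 0.5151 in KO replicates 1, 2 and 3, against 0.5119, 0.5217 and 0.5137 in WT replicates 1, 2 and 3. These values overlapped. The 46 large-subunit genes tested divided into 31 higher and 15 lower in KO (median log2 difference 0.03), and the 29 small-subunit genes into 14 higher and 15 lower (median -0.0015). Whether the subunits differed from each other was not tested. The median coefficient of variation between replicates was 9.86% in KO and 7.88% in WT over the members tested (9.81% in KO and 6.56% in WT for the large subunit, 10.02% in KO and 9.27% in WT for the small), beside 11.2% and 10.7% in KO and WT over all genes tested.

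**Figure D2:**
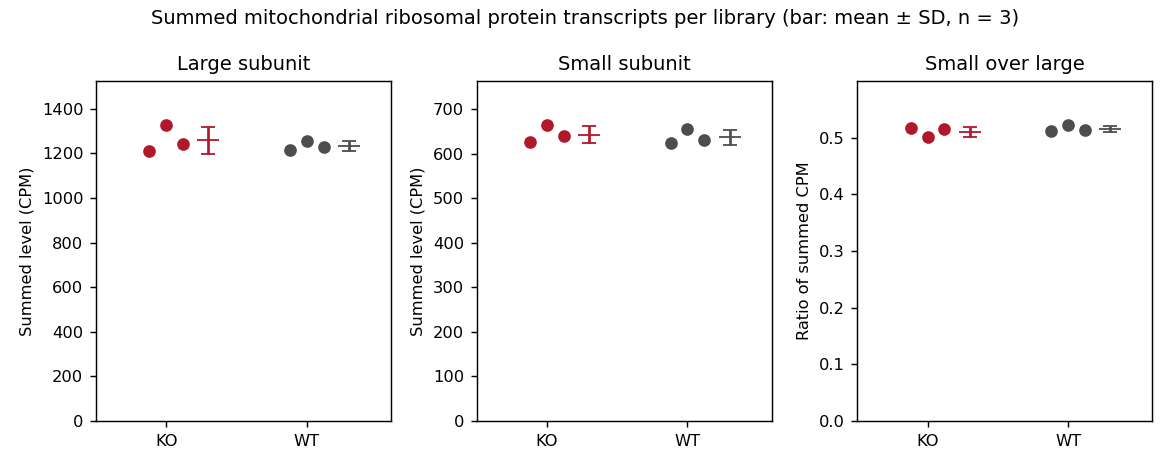
Summed CPM of large-subunit and small-subunit transcripts and their ratio (y axes, from 0) in each KO and WT library; points are libraries and bars the mean ± SD of 3. The KO and WT points overlap in all 3 panels.

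The groups were apart with KO on the higher side in 3 members (4.96% of all genes tested) and with KO on the lower side in 1 member (5.45% of all genes tested). Mrpl17 (chr7:105803206-105811099, minus strand, GRCm38) encodes a large-subunit protein with a bacterial counterpart. Its level was 25.4, 23.7 and 26.6 CPM in KO replicates 1, 2 and 3, against 20.9, 21.1 and 22.1 CPM in WT replicates 1, 2 and 3. Every KO library stood above every WT library, by a log2 difference of 0.24 ± 0.10 (SE) whose p in edgeR's quasi-likelihood test was 0.0287 before and 0.989 after adjustment. Across the 16 alternative settings Mrpl17 kept its sign and its log2 difference ran from 0.20 to 0.29, with adjusted p from 0.684 to 1. Mrpl36, the smallest of the bacterial-type large-subunit proteins, was at 14.7, 15.8 and 13.4 CPM in KO, against 12.86, 12.85 and 12.04 CPM in WT. Its log2 difference was 0.22 ± 0.13 (SE). Mrps26, a small-subunit protein found only in mitochondria, was at 22.1, 24.3 and 22.5 CPM in KO, against 17.8, 22.0 and 20.0 CPM in WT, with a log2 difference of 0.20 ± 0.11 (SE). For this gene the gap between the lowest KO and the highest WT library was small. Neither Mrpl36 nor Mrps26 passed, at an adjusted p of 0.989 each.

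The groups overlapped in the other 3 of the 6 higher members with the smallest p. Mrpl9, of the large subunit, was at 38.5, 45.4 and 45.9 CPM in KO, against 36.2, 35.5 and 40.4 CPM in WT. KO replicate 1 lay within the WT range, and the log2 difference of 0.21 ± 0.10 (SE) had a p of 0.0465 before and 0.989 after adjustment in edgeR's test. Mrpl19 averaged 15.7 ± 1.81 CPM in KO and 13.2 ± 1.496 CPM in WT (SD, n = 3 each), and its exons share 36.0% of their bases with Gcfc2. Mrps34, a mitochondria-specific protein of the small subunit, averaged 19.6 ± 3.28 CPM in KO and 16.3 ± 2.06 CPM in WT (SD, n = 3 each). Other genes, Mapk8ip3 and Nme3, cover 77.8% of its exonic bases, so that its counts are uncertain.

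On the lower side only Mrps31 had no overlap between the groups. Mrps31 (chr8:22411361-22429665, plus strand, GRCm38) encodes a mitochondria-specific protein of the small subunit. Its level was 19.1, 20.3 and 20.6 CPM in KO replicates 1, 2 and 3, against 21.7, 22.4 and 25.2 CPM in WT replicates 1, 2 and 3. Every KO library stood below every WT library, and the log2 difference of -0.21 ± 0.11 (SE) had a p of 0.0625 before and 0.989 after adjustment in edgeR's test. Mrpl16, a core protein of the large subunit, was at 19.9, 20.5 and 22.3 CPM in KO, against 20.6, 26.0 and 24.6 CPM in WT. Mrpl27, whose bacterial counterpart reaches toward the peptidyl transferase centre, was at 6.27, 9.42 and 9.53 CPM in KO, against 10.6, 8.75 and 10.3 CPM in WT. KO replicate 1 was low for this gene, and without it the log2 difference was -0.06, against -0.23 with it. Mrpl32, which the m-AAA protease trims before it joins the large subunit, averaged 13.7 ± 1.49 CPM in KO and 15.5 ± 2.21 CPM in WT (SD, n = 3 each). Its log2 difference of -0.18 was -0.06 without WT replicate 2 and -0.09 without KO replicate 2. Mrpl33 averaged 40.4 ± 2.13 CPM in KO and 42.8 ± 2.07 CPM in WT, and Mrpl50 26.2 ± 2.65 CPM in KO and 28.0 ± 2.65 CPM in WT (SD, n = 3 each). Each of these 5 large-subunit genes overlapped between groups and had an adjusted p of at least 0.989.

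**Figure D3:**
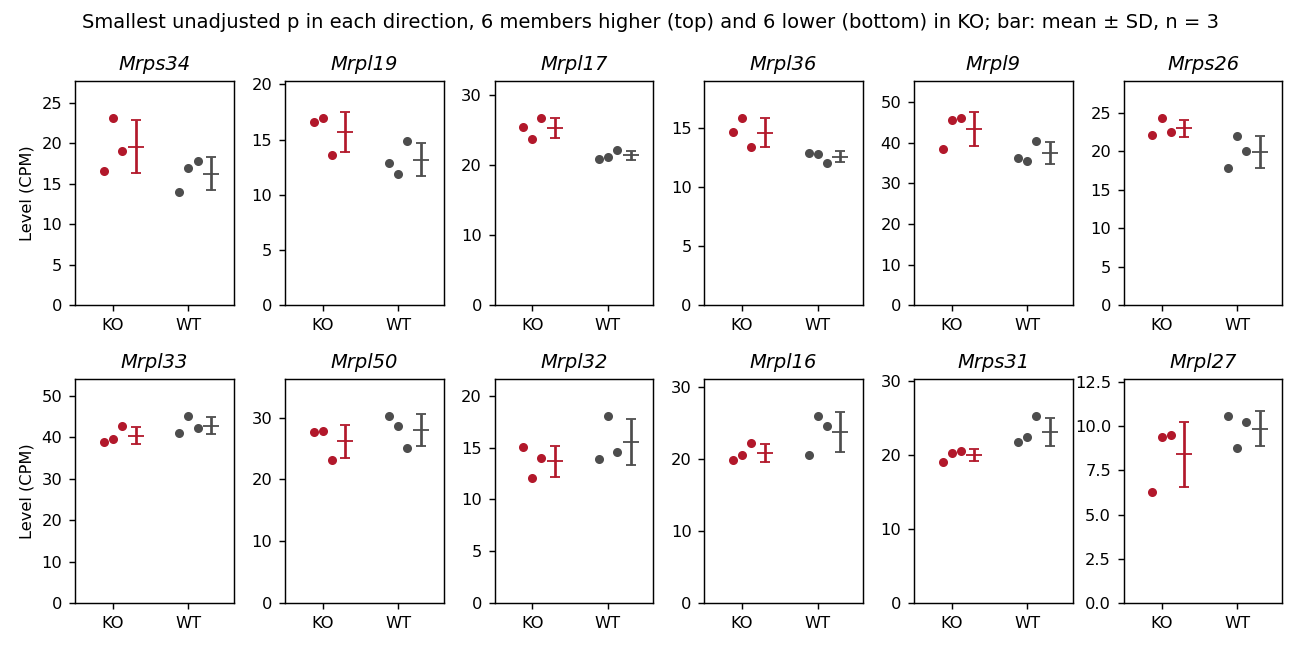
CPM (y axes, from 0) of the 6 members with the smallest unadjusted p among those higher in KO (top) and the 6 among those lower (bottom), in each KO and WT library; bars are the mean ± SD of 3. The groups are apart only for Mrpl17, Mrpl36, Mrps26 and Mrps31, and none of the 12 passed.

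Levels of different members were compared per kilobase of exonic length over 74 members, leaving out Mrpl33, which had no annotated length, and Mrpl53, which had 0 counts. On this scale the mean over 6 libraries ranged from 1.45 CPM per kilobase for Mrps10 to 40.9 for Mrpl18, a 28.3-fold range, with a median of 8.64. Tested genes as a whole had a median of 3.16 CPM per kilobase and cytosolic ribosomal proteins 19.6. The highest was Mrpl18, a large-subunit protein that in human cells also binds the 5S ribosomal RNA, at 42.3 ± 7.34 CPM per kilobase in KO and 39.5 ± 3.12 in WT (SD, n = 3 each). Mrpl2, next to the peptidyl transferase centre, stood at 39.2 ± 1.89 in KO and 37.5 ± 3.45 in WT, and Mrpl12, the stalk protein that contacts translation factors, at 36.6 ± 4.44 in KO and 36.6 ± 1.40 in WT, in the same unit. Mrps23, a mitochondria-specific protein of the small subunit, was at 35.7 ± 1.05 in KO and 35.4 ± 2.17 in WT, and Mrpl14 of the large subunit at 36.6 ± 3.58 in KO and 32.8 ± 2.63 in WT. Within a genotype these neighbours in the order overlapped in their spread.

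At the low end stood Mrps10, at 1.47 ± 0.139 CPM per kilobase in KO and 1.42 ± 0.219 in WT, and Mrpl23, a protein at the exit of the nascent chain tunnel, at 1.69 ± 0.216 in KO and 1.52 ± 0.158 in WT (SD, n = 3 each). Mrps2, Mrps6 and Mrps35 came next, between 2.33 and 2.58 in KO and between 2.22 and 2.67 in WT. The pseudogene Mrpl23-ps1 held 3.14 times the counts of Mrpl23 over all libraries, so the place of Mrpl23 in the order is uncertain. Large-subunit members had a median of 10.8 CPM per kilobase and small-subunit members 6.55. The order of members was nearly the same in both genotypes, with a Spearman correlation of 0.993 across the 74 members as a description. Annotated length decides part of this order: with the longest transcript in place of all exons, 3 of the highest 5 and 3 of the lowest 5 were shared.

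**Figure D4:**
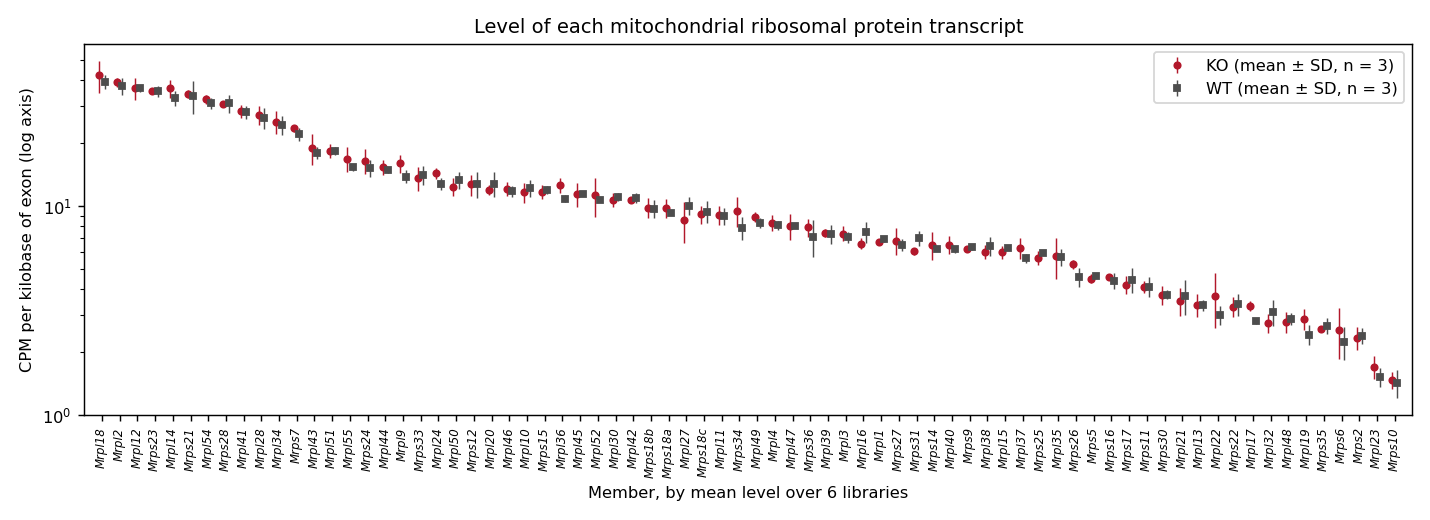
Level of each of 74 members in CPM per kilobase of exon (y axis, log scale) as mean ± SD of 3 KO (circles) and 3 WT (squares) libraries, ordered by the mean over 6 libraries. The levels run from 40.9 for Mrpl18 to 1.45 for Mrps10, and the KO and WT marks stay close together throughout.

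Mammals encode 3 paralogs of the bacterial protein S18. The products of Mrps18b and Mrps18c sit in the small subunit. Mrps18a was at 36.9, 31.8 and 39.1 CPM in KO replicates 1, 2 and 3, against 34.7, 33.9 and 33.97 CPM in WT replicates 1, 2 and 3. Mrps18b averaged 20.5 ± 2.25 CPM in KO and 20.2 ± 2.03 CPM in WT, and Mrps18c 9.80 ± 1.00 CPM in KO and 10.1 ± 1.23 CPM in WT (SD, n = 3 each). Per kilobase of all exons the 3 were close, at 9.74, 9.80 and 9.11 in KO and 9.27, 9.69 and 9.40 in WT for Mrps18a, Mrps18b and Mrps18c. This closeness depends on the length used. All exons came to 3690, 2089 and 1076 bases, but the longest transcripts to 2220, 1079 and 820. Mrps18b and Mrps18c also share 30.5% and 23.2% of their exonic bases with other genes, so their counts are uncertain. KO and WT libraries overlapped for each of the 3.

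The counts of some members are uncertain, since other genes or pseudogenes share their sequence or position. Mrpl53, of the large subunit, had 0 counts in all 6 libraries, which allows up to 3 counts in each, for counting error only. Its 790 exonic bases on chromosome 6 are 88.0% covered by Ccdc142os and Gm42688. In all, 10 of the 75 members with coordinates share at least 20% of their exonic bases with another gene, or 13.3%, beside 8.82% of genes tested. They are Mrpl53, Mrps34, Mrps25, Mrpl19, Mrpl43, Mrps18b, Mrpl24, Mrps27, Mrpl47 and Mrps18c. Mrps25, of which 69.8% is shared with Nr2c2, averaged 37.0 ± 2.85 CPM in KO and 39.0 ± 0.678 CPM in WT (SD, n = 3 each). Mrpl24, of which 26.3% is shared with Rrnad1, averaged 32.4 ± 1.87 CPM in KO and 28.9 ± 1.98 CPM in WT. Mrpl43, Mrpl47 and Mrps27 had log2 differences of 0.07, -0.0057 and 0.06. Without these 10, the median log2 difference of the remaining 66 tested members was 0.01.

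Pseudogene rows took reads on the scale of their parent genes. Mrps36, once counted as a small-subunit protein and now placed in the 2-oxoglutarate dehydrogenase complex, had 75, 88 and 86 counts in KO replicates 1, 2 and 3, against 52, 74 and 80 in WT replicates 1, 2 and 3. Its pseudogenes Mrps36-ps1 and Mrps36-ps2 together had 241, 218 and 216 counts in KO and 150, 184 and 238 in WT. Over all libraries Mrpl23-ps1 held 3.14 times the counts of Mrpl23, and Mrpl48-ps 1.05 times those of Mrpl48. The handling of reads that match both places was also not given in the sources used here, so the levels of these 3 parents are uncertain. With the pseudogene counts added, the log2 differences were 0.12 for Mrps36, 0.11 for Mrpl23 and -0.03 for Mrpl48, beside 0.15, 0.16 and -0.05 without them, and none passed.

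The members are spread over 17 chromosomes, with 10 on chromosome 11, 8 on chromosome 17 and 0 on the X. Many lie head to head or overlapping with another gene: 32 of 75, or 42.7%, had the start of a protein-coding gene on the opposite strand within 1000 bases of their own, beside 16.5% of the 11505 protein-coding genes tested. Mrpl46 and Mrps11 are such neighbours of each other, 412 bases apart on chromosome 7. Their log2 differences were 0.03 ± 0.12 for Mrpl46 and -0.0015 ± 0.15 for Mrps11 (SE).

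RefSeq promoters of 300 bases, 250 before and 50 after the start, were matched by symbol to 67 members. CCGGAAG occurred in 35.8% of them, beside 19.6% of 8497 tested genes with a promoter. AAGATGGC, the core motif of YY1, occurred in 17.9% of members and 5.24% of tested genes. Of the 12 members with it, only Mrpl32, Mrpl36, Mrps11 and Mrps12 held it wholly before the start. In the others it lay in, or reached into, the 50 bases after the start. GCGCATGCG occurred in 10.4% of members and 4.15% of tested genes. Both strands were searched. The NRF1 motif is nearly palindromic, so that 1 site can match on both strands, and no matches of different motifs overlapped before the starts of the members. In members 0 windows held TCAAGGTCA, the motif of estrogen-related receptors, beside 0.318% of tested genes. A full estrogen response element, with its half-sites GGTCA and TGACC 3 bases apart, was likewise in 0 members, beside 0.0118% of tested genes. A match is a run of letters, and its absence from this window says nothing of a factor's binding. The factors themselves had overlapping groups: Nrf1 was at 16.99 ± 1.81 CPM in KO and 17.8 ± 0.608 CPM in WT, Gabpa at 59.8 ± 3.28 CPM in KO and 64.8 ± 5.26 CPM in WT, and Yy1 at 19.7 ± 1.18 CPM in KO and 19.5 ± 1.96 CPM in WT (SD, n = 3 each).

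The partners of the mitoribosome were described by lists. In edgeR's quasi-likelihood test over all genes 0 genes of these lists passed. Before adjustment 1 of 27 assembly factors, 1 of 12 regulators and 3 of 75 cytosolic ribosomal proteins were below 0.05, beside 4.26% of all genes. Mitoribosome proteins with other symbols, such as Dap3, a GTP-binding protein of the small subunit, divided into 5 higher and 2 lower in KO (median log2 difference 0.04). Dap3 itself averaged 36.0 ± 2.62 CPM in KO and 35.0 ± 0.499 CPM in WT, and Gadd45gip1, a large-subunit protein, 46.9 ± 5.27 CPM in KO and 50.8 ± 2.06 CPM in WT (SD, n = 3 each). Ict1, a peptidyl-tRNA hydrolase built into the large subunit, had a log2 difference of 0.11, and Mrp63 one of 0.12. Assembly and ribosomal RNA modification factors divided into 14 higher and 13 lower (median 0.03). Of these, Mterfd2 (MTERF4), which brings a methyltransferase to the large subunit, was at 8.52, 10.3 and 11.5 CPM in KO replicates 1, 2 and 3, against 12.3, 14.5 and 14.2 CPM in WT replicates 1, 2 and 3. The groups were apart with KO on the lower side, as in 5.45% of all genes tested. The log2 difference of -0.44 ± 0.15 (SE) had a p of 0.00877 before and 0.989 after adjustment in edgeR's test. Eral1, a chaperone of mt-Rnr1, averaged 17.02 ± 0.401 CPM in KO and 19.0 ± 0.813 CPM in WT, and the GTPase Noa1 4.30 ± 1.11 CPM in KO and 5.63 ± 1.52 CPM in WT (SD, n = 3 each). Translation factors divided into 8 higher and 9 lower (median -0.00029), with log2 differences of -0.09 for Gfm2, a GTPase that acts in ribosome recycling, 0.11 for the elongation factor Tufm and 0.27 for 2810006K23Rik. Mitochondrial aminoacyl-tRNA synthetases and related enzymes divided into 16 higher and 6 lower (median 0.07), with -0.21 for Qrsl1, 0.20 for Tars2 and 0.19 for Aars2.

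The ribosomal RNAs around which the members assemble varied widely between libraries. The small-subunit RNA mt-Rnr1 was at 396.2, 303.4 and 237.6 CPM in KO replicates 1, 2 and 3, against 533.0, 295.0 and 266.2 CPM in WT replicates 1, 2 and 3. The large-subunit RNA mt-Rnr2 averaged 10360 ± 2013 CPM in KO and 10000 ± 1220 CPM in WT (SD, n = 3 each). In the same unit mt-Rnr1 averaged far less, at 312.4 ± 79.7 in KO and 364.7 ± 146.4 in WT. Whether the libraries captured both RNAs alike was not tested, so these CPM need not follow their amounts in the tissue. Messenger RNAs of the mitochondrial genome, which the mitoribosome translates, divided into 9 higher and 4 lower (median 0.0051). Their sum was 80750, 59010 and 48690 CPM in KO replicates 1, 2 and 3, against 58070, 61260 and 61780 CPM in WT replicates 1, 2 and 3. The KO libraries lay on both sides of the WT range, and the median was -0.22 without KO replicate 1 and 0.16 without KO replicate 3. KO and WT libraries overlapped for both ribosomal RNAs.

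Regulators of mitochondrial biogenesis divided into 3 higher and 9 lower (median log2 difference -0.09), and 0 of the 12 tested were called. Ppargc1a, a coactivator of these programmes, was at 58.9, 65.1 and 32.7 CPM in KO replicates 1, 2 and 3, against 75.6, 78.8 and 77.7 CPM in WT replicates 1, 2 and 3. The groups were apart with KO on the lower side, as in 5.45% of all genes tested. KO replicate 3 was the lowest, and the adjusted p was 0.989 in edgeR's test. Its relative Ppargc1b averaged 5.24 ± 0.311 CPM in KO and 7.30 ± 1.12 CPM in WT (SD, n = 3 each), again without overlap and with an adjusted p of 0.989 in edgeR's test. Summed members in KO replicate 3 stood at 1880 CPM, within the WT range. This is 1 library, and a link between the members and Ppargc1a or Ppargc1b was not tested. Esrra, the estrogen-related receptor alpha, averaged 129 ± 11.5 CPM in KO and 127 ± 8.33 CPM in WT, and Tfb1m, which methylates mt-Rnr1, 4.24 ± 1.49 CPM in KO and 4.91 ± 0.538 CPM in WT (SD, n = 3 each).

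Cytosolic ribosomal proteins, the counterpart set for translation outside the organelle, divided into 59 higher and 16 lower in KO around a median log2 difference of 0.08, beside 0.02 for the mitochondrial set. Leaving out 1 library moved the cytosolic median between 0.03 without KO replicate 2 and 0.14 without KO replicate 1, and the length correction gave 0.05. The smallest p belonged to Rps3a, at 87.9 ± 6.81 CPM in KO and 65.5 ± 7.25 CPM in WT (SD, n = 3 each), followed by Rpl17 with a log2 difference of -0.20 and Rps9 with 0.19. In neither set was a gene called, and the difference between the sets was not tested.

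**Figure D5:**
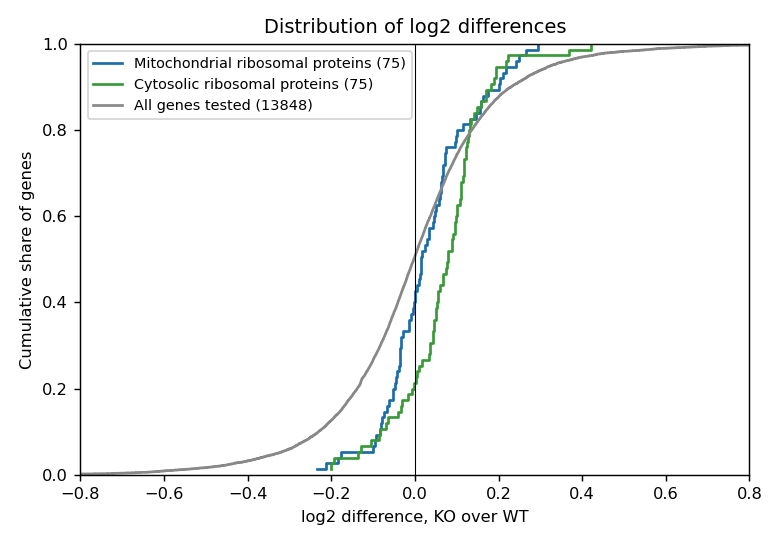
Cumulative share of genes (y axis) by log2 difference of KO over WT (x axis) for 75 mitochondrial ribosomal proteins, 75 cytosolic ribosomal proteins and all 13848 genes tested. The mitochondrial set crosses the middle at 0.02, the cytosolic set at 0.08 and all genes at -0.0024, and the x axis leaves out the most extreme genes.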

How the data were processed

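RNA sequencing of 6 quadriceps libraries was deposited as 1 table. TopHat 1.3.3, edgeR and build mm10 are named in the submitters' processing notes. The read counter, annotation release and handling of reads that match several places were not given in the sources used here. Per the labels' protocols, RNA was taken up in Trizol and made into TruSeq libraries. The authors deposited raw counts per Ensembl ID, with a log2 fold change and p-values of their own test. Of 37506 rows 29 repeated an ID with identical counts and were merged.

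The filter filterByExpr kept 13848 genes. TMM factors ran from 0.968 to 1.037, and genotype was tested with edgeR 4.0.16 (robust glmQLFit, glmQLFTest, two-sided) in R 4.3.3, with Benjamini-Hochberg adjustment over all genes at 0.05. The standard error is the log2 difference over the square root of F. The scripts were tested on simulated data. Lengths and coordinates came from GENCODE M21 (GRCm38, the assembly mm10 names), which held 75 of 76 members; Mrpl33 was not matched. No 2 replicates were as alike as sampling noise alone would make them (chi-square per gene of 3.46 to 9.56). Promoters came from RefSeq, and the members without an entry were Mrps34, Mrpl54, Mrpl19, Mrpl15, Mrpl4, Mrps35, Mrpl38, Mrpl13 and Mrps28. Alternatives were other scalings and filters, DESeq2 1.42.0, limma 3.58.1 (voom), a replicate block, a length correction, the longest transcript as length, and leaving out each library. Adding pseudogene counts and leaving out members that share exons were chosen after seeing the data. Genes were named by rule: 6 members of smallest p on either side, the 5 highest and 5 lowest per kilobase, the Mrps18 paralogs, Mrps36, members at 0, members sharing exons, and partners fixed by name or with the 3 smallest p of their list. Mrpl22, Mrpl46, Mrps11 and the neighbour genes fall outside it and were chosen after their values were seen. The members and lists were chosen with earlier results of these data known. The limit from a count of 0 covers counting error only.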

Additional observations from a re-analysis of the deposited data

How the results depend on the processing

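No member passed the threshold under any of the alternatives run, including DESeq2 and limma voom. Over all genes 0 passed in the quasi-likelihood test, 19 with no filter on low counts, 3 with DESeq2, and 0 to 3 when 1 library was left out, the 3 without WT replicate 1. The summed level of members in KO over WT and the small-to-large ratio each moved by less than 1 SD between replicates under every scaling and left-out library. Leaving out 1 library moved the small-subunit median from -0.027 to 0.034, the high end without WT replicate 2, and the large-subunit median from -0.02 to 0.05. The median level per kilobase was 8.64 CPM with all exons and 12.01 with the longest transcript. All 12 members given for their p kept their sign in the 16 alternative fits. They were chosen by p in the same libraries that these fits reuse, so this lends their differences no support. Members with smaller differences, such as Mrps5 at -0.04 and Mrps9 at -0.03, also kept their sign in all 16.

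Some members close to 0 changed sign. The log2 difference of Mrpl47, -0.0057, was 0.00044 with upper-quartile scaling, 0.010 with no scaling beyond totals and 0.0034 with no filter. That of Mrps18b, 0.02, was -0.010 with the length correction. With 1 library left out the log2 differences ran from -0.11 to 0.058 for Mrps18c, -0.11 to 0.091 for Mrpl47, -0.078 to 0.082 for Mrps18b, -0.041 to 0.17 for Mrps27, -0.070 to 0.15 for Mrpl43 and -0.012 to 0.23 for Mrps36. The negative values of Mrps18b, Mrps27 and Mrpl43 came without KO replicate 2 (also without WT replicate 2 for Mrps18b), that of Mrps36 without WT replicate 1. Mrps18c turned positive without KO replicate 1 or WT replicate 1, and Mrpl47 without KO replicate 1 or WT replicate 2. The assembly list's median, 0.03, was -0.0061 without KO replicate 3 and -0.016 without WT replicate 2. That of the mitochondrial messenger RNAs, 0.0051, ran from -0.22 to 0.16 with 1 library left out and was also negative with limma voom (-0.024), the replicate block (-0.024) and the length correction (-0.026). That of small-subunit genes, -0.0015, was between -0.016 and 0.014 with every library kept. The cause was not tested.

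Replicate numbers gave no clear pairing of the libraries: same-numbered KO and WT libraries had correlations of -0.0122, 0.221 and -0.017 over 10134 genes. Such correlations cannot show whether libraries were prepared in pairs or in shared batches. With a replicate block 0 members and 0 genes passed, the members' median was 0.01, and 43 were higher and 32 lower. In KO replicate 2 alone of the KO libraries was the best match the WT library of its own number. KO replicate 1 was closest to WT replicate 3, at 0.181, and KO replicate 3 to WT replicate 1, at 0.0656. Members with few counts, such as Mrps6 and Mrpl22, had 95% intervals up to 0.56 log2 units on either side, which limits what can be said of them.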

Other observations

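Several members lie head to head or overlapping with genes that also serve mitochondria, and the values of those neighbours can be set beside theirs. Mrpl36 starts 29 bases from Ndufs6, a complex I subunit. Ndufs6 averaged 47.2 ± 1.67 CPM in KO and 42.2 ± 2.42 CPM in WT (SD, n = 3 each), with a log2 difference of 0.16 beside 0.22 for Mrpl36. Mrps12, a protein of the decoding centre, starts 172 bases from Sars2, the mitochondrial seryl-tRNA synthetase. Their log2 differences were -0.0088 for Mrps12 and 0.07 for Sars2. Mrpl47 starts 615 bases from Ndufb5, another complex I subunit, which had a log2 difference of 0.06. It shares 24.2% of its exonic bases with Ndufb5 and Actl6a. Mrpl43 starts 779 bases from Twnk, the mitochondrial DNA helicase, which had -0.12 beside 0.07 for Mrpl43. Of the exonic bases of Mrpl43, 33.4% are shared with Twnk. The counts of Mrpl47 and Mrpl43 may therefore not be independent of those of these neighbours. Mrpl49 starts 59 bases from Fau, whose product is processed to a protein of the cytosolic ribosome, with 0.07 for Fau and 0.10 for Mrpl49. Mrpl32 starts 75 bases from Psma2, a proteasome subunit. Psma2 averaged 37.4 ± 1.92 CPM in KO and 32.3 ± 2.07 CPM in WT (SD, n = 3 each), with a log2 difference of 0.21. That of Mrpl32 was -0.18, and -0.06 without WT replicate 2. Of the 29 neighbours tested 0 passed in edgeR's quasi-likelihood test and 1, Psma2, was below 0.05 before adjustment, and their log2 differences ran from -0.38 to 0.41. Reads of genes that overlap cannot be told apart without strand.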
